A study of Homo sapiens with 6 samples.

Results

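NDRG1, BNIP3 and HK1, a trio of genes from the response to low oxygen and from glucose use, were followed in Caco-2 cells that carried hairpins against FAM46A (TENT5A). They were taken by gene symbol and chosen by their measured differences between hairpin and control cells, since an earlier look at these same values had listed NDRG1 and BNIP3 as lower and HK1 as higher with the hairpins. Each of the 3 genes had 1 probe set, so 3 of 48144 probe sets and 3 of 14884 named genes are described here. Caco-2 is an established line from a human colon carcinoma that forms an enterocyte-like layer in culture. Below confluence the cells received a lentivirus carrying a short hairpin RNA (shRNA), and total RNA was taken 17 days later. The control group carried scramble shRNA, another group FAM46A-shRNA#2 and the last group FAM46A-shRNA#4, with 2 arrays per group and 6 single-channel Affymetrix arrays in all. All groups, the control included, had therefore been infected and carried a hairpin, and all came from 1 cell line. FAM46A itself was not analysed here, so how far each hairpin lowered it is not known from these values, and the groups rest on the labels.

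The deposited values are on a log scale, taken as log2, and each probe set has been centred so that its median on the 6 arrays is 0. A value of 0 is thus the middle of the 6 arrays, and the values carry no expression level. A group that lies between the other two has a mean near 0 by this construction. For the same reason the enterocyte identity of the cells could be followed only as differences between groups. The value behind ± is the standard error (SE) from a limma fit of all named genes, with n = 2 arrays per group. A gene is called where its adjusted p (limma, Benjamini-Hochberg over all 14884 genes) was under 0.05. The arrays are labelled biological replicates, and what separates them is not stated, so the p-values reflect no more than how far these arrays vary. In RNA of whole cultures, fewer cells of a kind and less RNA per cell cannot be told apart.

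In oxygen-poor cells the hydroxylases that mark hypoxia-inducible factors (HIF) for destruction lose activity, and HIF pairs with ARNT and binds short DNA elements near its target genes. NDRG1, a member of the N-myc downstream regulated family, is a cytoplasmic protein induced by low oxygen and by differentiation, is repressed by MYC, and is widely expressed in intestinal epithelium. BNIP3 is a mitochondrial outer membrane protein that recruits LC3-family proteins and so marks mitochondria for mitophagy, and it is a classical HIF target. HK1 is the broadly expressed hexokinase that phosphorylates glucose at the outer mitochondrial membrane, while its relative HK2 is the hexokinase better known as a HIF target.

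The DNA before BNIP3 and HK1 is shown because BNIP3 was lower and HK1 higher with the same hairpins, and because HIF binds the core ACGTG or GCGTG. The windows are the 250 bases before a gene's annotated start, read 5′ to 3′ on the gene's strand from the RefSeq promoter table (GRCh38.p14). Capitals mark ACGTG or GCGTG on either strand, where the reverse strand reads CACGT or CACGC. The BNIP3 window lies at chr10:131981924-131982173 on the minus strand and the HK1 window at chr10:69269750-69269999 on the plus strand.
BNIP3: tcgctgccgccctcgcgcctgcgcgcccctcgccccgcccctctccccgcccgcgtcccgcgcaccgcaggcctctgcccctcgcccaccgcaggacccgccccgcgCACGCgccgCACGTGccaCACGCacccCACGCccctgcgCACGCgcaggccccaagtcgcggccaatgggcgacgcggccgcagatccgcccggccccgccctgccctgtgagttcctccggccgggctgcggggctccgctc
HK1: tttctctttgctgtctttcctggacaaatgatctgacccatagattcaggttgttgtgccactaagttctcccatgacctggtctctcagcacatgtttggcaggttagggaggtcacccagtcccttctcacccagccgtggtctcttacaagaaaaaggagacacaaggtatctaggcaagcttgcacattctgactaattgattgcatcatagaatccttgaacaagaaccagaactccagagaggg

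The BNIP3 window held ACGTG on both strands at once, as the palindrome CACGTG that begins 134 bases before the gene's start, and GCGTG at 4 further places on the reverse strand. The HK1 window shown held neither motif, but it was printed only as the first by coordinate of 7 annotated HK1 windows. Before the start, GCGTG occurred in 1 of the 7, the one richest in G and C (chr10:69318814-69319063), and ACGTG in 0. The BNIP3 window was 81.6% G or C and the HK1 window shown 46.8%, within a range of 45.6% to 74.0% over the 7 HK1 windows. Of all 35116 windows of 300 bases in the table (250 before to 50 after each start), 21.4% held ACGTG on either strand, 36.5% held GCGTG and 7.26% held CACGTG, which is counted within ACGTG too. Which HK1 start Caco-2 cells use was not measured, so the 2 printed windows do not set BNIP3 against HK1. NDRG1 is named without sequence.

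NDRG1 had the widest range of the trio. In scramble cells its log2 values were 0.79 and 1.40, with shRNA#2 they were -0.089 and 0.089, and with shRNA#4 -0.50 and -0.51. Both scramble arrays lay above all 4 hairpin arrays, by 0.70 at the nearest, and both shRNA#2 arrays lay above both shRNA#4 arrays. The scramble arrays themselves stood 0.60 apart, the widest gap between replicates in the trio, while the shRNA#4 arrays differed by 0.0083. The difference from scramble was -1.10 ± 0.19 with shRNA#2 and -1.60 ± 0.19 with shRNA#4, and -1.35 ± 0.16 (2.55-fold lower) for the mean of both hairpins.

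BNIP3, the mitophagy receptor whose promoter is printed above, varied less within groups than NDRG1, with a pooled SD of 0.081 against 0.26, and about as much as HK1 (0.089). Its log2 values were 0.82 and 0.87 in scramble cells, 0.061 and -0.061 with shRNA#2, and -0.51 and -0.36 with shRNA#4. The scramble arrays lay 0.76 above the nearest hairpin array, a gap several times the 0.051 between them. The difference of BNIP3 from scramble was -0.85 ± 0.073 with shRNA#2 and -1.28 ± 0.073 with shRNA#4. Averaged over both hairpins the difference was -1.06 ± 0.063, or 2.09-fold lower.

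HK1, the hexokinase, ran the other way. Its log2 values were -0.63 and -0.65 in scramble cells, 0.11 and -0.11 with shRNA#2, and 0.22 and 0.24 with shRNA#4. Both scramble arrays lay below all 4 hairpin arrays, by 0.52 at the nearest, and the shRNA#2 arrays, 0.22 apart, lay below both shRNA#4 arrays. HK1 was higher than in scramble by 0.64 ± 0.077 with shRNA#2 and by 0.87 ± 0.077 with shRNA#4. The mean of both hairpins stood 0.75 ± 0.066 above scramble, or 1.69-fold higher.

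**Figure D1:**
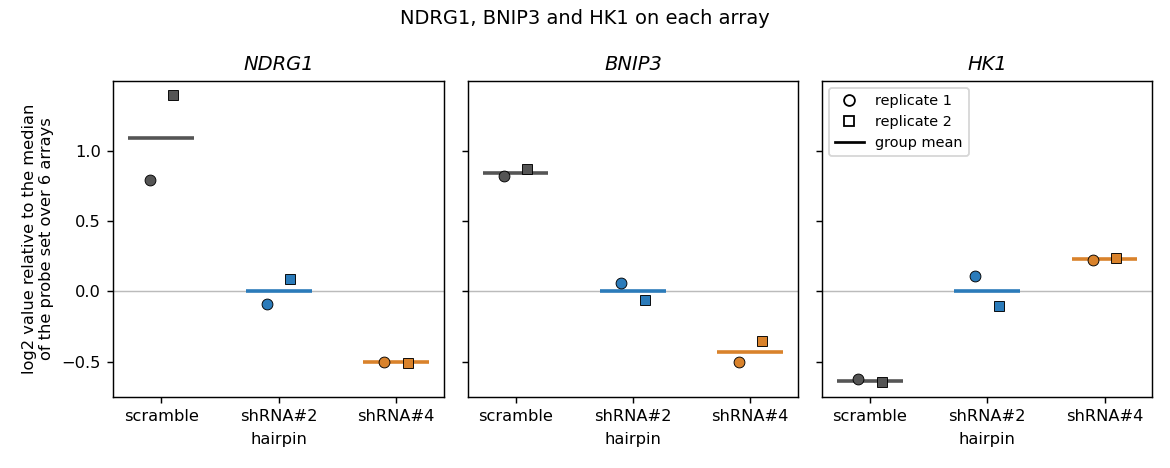
Log2 value of NDRG1, BNIP3 and HK1 on each of the 6 arrays, relative to the median of the probe set, by hairpin; circles are replicate 1, squares replicate 2, and lines are group means. In each panel shRNA#2 lies between scramble and shRNA#4, and NDRG1 has the widest gap between its scramble arrays, 0.60.

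These 3 differences from scramble chose the genes and are given as a description, without a test. In the 3 comparisons with scramble, 21.6% (shRNA#2, 12.1% higher and 9.54% lower), 26.1% (shRNA#4, 15.7% higher and 10.4% lower) and 25.4% (mean of both hairpins) of all genes were called. The scramble arrays lay apart from all 4 hairpin arrays, on either side, for 36.2% of all genes, as for all 3 genes here. The hairpin arrays were the higher ones for 19.5% and the lower ones for 16.7%. Both shRNA#2 arrays lay apart from both shRNA#4 arrays for 54.5% of all genes. The groups stood apart in the order scramble, shRNA#2, shRNA#4, rising or falling, for 12.5% of all genes, and again for all 3 here.

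The difference between the hairpins was not used to choose the genes and was tested. Here 15.3% of all genes were called, 6.64% with shRNA#2 higher and 8.63% with it lower. BNIP3 was higher with shRNA#2 than with shRNA#4 by 0.43 ± 0.073 (95% interval 0.25 to 0.61, limma adjusted p = 0.014), so it was lowest with shRNA#4. NDRG1 was higher with shRNA#2 by 0.51 ± 0.19, a larger but less certain difference (95% interval 0.053 to 0.96, limma adjusted p = 0.139). HK1 was lower with shRNA#2 (log2 difference -0.23 ± 0.077, 95% interval -0.42 to -0.045, limma adjusted p = 0.106), and without replicate 2 of shRNA#2 this shrank to -0.12 (limma adjusted p = 0.344). BNIP3 thus differed between the hairpins beyond the spread of the arrays, while NDRG1 and HK1 did not pass after adjustment over all genes, although their unadjusted intervals left out 0. The BNIP3 call ended without replicate 1 of shRNA#2 (0.37, limma adjusted p = 0.0826) or without replicate 1 of shRNA#4 (0.36, limma adjusted p = 0.0588). NDRG1 was called without either scramble array (limma adjusted p = 0.0161 for the same 0.51), since the scramble pair then no longer added to the estimate of its spread.

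The nearest relatives of each gene did not move as a family. Of the other NDRG genes, NDRG2 had log2 values of 0.34 and 0.56 in scramble, -0.025 and 0.025 with shRNA#2, and -0.075 and -0.11 with shRNA#4. It fell by 0.49 ± 0.070 for the mean of both hairpins (limma adjusted p = 0.00401). NDRG3 gave 0.23 ± 0.094 for that mean (limma adjusted p = 0.14), but stood 0.53 ± 0.11 higher with shRNA#2 than with shRNA#4 (limma adjusted p = 0.0256). This call ended without either shRNA#2 array or without replicate 2 of shRNA#4 (limma adjusted p up to 0.133). NDRG4 stood at -0.028 ± 0.081 for the mean of both hairpins.

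BNIP3L (NIX), the closest relative of BNIP3 and also a mitophagy receptor, had log2 values of 0.16 and 0.13 in scramble, 0.045 and -0.045 with shRNA#2, and -0.48 and -0.55 with shRNA#4. Its shRNA#2 arrays thus lay near scramble and its shRNA#4 arrays well below. The mean of both hairpins fell by 0.40 ± 0.049 (limma adjusted p = 0.00231), made up of -0.15 with shRNA#2 (limma adjusted p = 0.133) and -0.66 with shRNA#4 (limma adjusted p = 0.000785). BNIP3L was higher with shRNA#2 than with shRNA#4 by 0.52 ± 0.056 (limma adjusted p = 0.00435), the same side as BNIP3. BNIP1 and BNIP2 share with BNIP3 the name given to proteins that interact with a viral relative of BCL2. BNIP1 rose by 0.30 ± 0.070 (limma adjusted p = 0.023), a call that ended without either shRNA#2 array or without either scramble array (limma adjusted p up to 0.117). For BNIP1 the change was 0.086 with shRNA#2 (limma adjusted p = 0.561) and 0.52 with shRNA#4 (limma adjusted p = 0.00553). BNIP2 stood at 0.044 ± 0.066.

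Among the hexokinases HKDC1, which lies next to HK1 on chromosome 10 and encodes a hexokinase domain protein, went the opposite way to HK1. Its log2 values were 0.50 and 0.34 in scramble, -0.085 and 0.085 with shRNA#2, and -0.74 and -0.76 with shRNA#4. The 3 groups did not overlap, as for HK1, but in reverse. HKDC1 fell by 0.80 ± 0.069 for the mean of both hairpins (1.74-fold, limma adjusted p = 0.000871) and stood 0.75 ± 0.080 higher with shRNA#2 than with shRNA#4 (limma adjusted p = 0.00397). HK2 gave 0.26 ± 0.12 for the mean of both hairpins (limma adjusted p = 0.179), with scramble arrays of -0.38 and 0.030. Without the scramble array at 0.030, replicate 2, HK2 was called at 0.46 (limma adjusted p = 0.0146). HK3 stood at -0.11 ± 0.045 (limma adjusted p = 0.126). GCKR, the regulatory protein that inhibits glucokinase, fell by 0.64 ± 0.047 (limma adjusted p = 0.000539). How far the probe sets of HK1 and HKDC1 read each other's transcript was not tested.

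**Figure D2:**
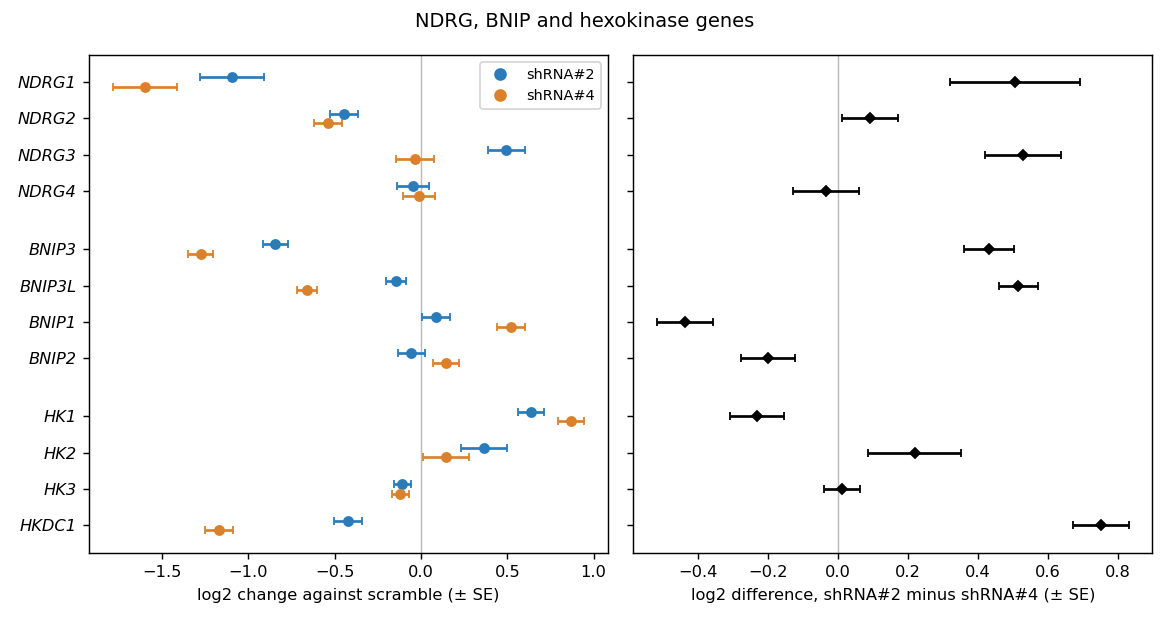
Left, log2 change against scramble with shRNA#2 and shRNA#4 for the NDRG, BNIP and hexokinase genes; right, log2 difference of shRNA#2 minus shRNA#4; bars are SE of the limma fit, n = 2 arrays per group. HK1 lies to the right of 0 and its neighbour HKDC1 to the left. The shRNA#4 point lies farther from 0 than the shRNA#2 point for every gene shown except NDRG3, NDRG4 and HK2.

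Of the machinery that senses oxygen, 9 of 15 listed genes were measured. They were EPAS1, ARNT, ARNT2, EGLN1, EGLN3, CREBBP, EP300, SIAH1 and SIAH2. HIF1A, the HIF-1 alpha subunit, was not among them, so this machinery is seen in part. For the mean of both hairpins 1 rose and 2 fell, against 25.4% called over all genes, and the median change was 0.031 against 0.0028 over all genes. EGLN1, the main HIF prolyl hydroxylase, fell by 0.35 ± 0.067 (limma adjusted p = 0.0121). It stood at -0.15 with shRNA#2 and -0.55 with shRNA#4, a difference of 0.41 ± 0.077 (limma adjusted p = 0.02). ARNT, the partner subunit of HIF, fell by 0.29 ± 0.052 (limma adjusted p = 0.00989). EPAS1, the HIF-2 alpha subunit, rose by 0.23 ± 0.060 (limma adjusted p = 0.0343). It stood at 0.31 with shRNA#2 (limma adjusted p = 0.0268) and at 0.16 with shRNA#4 (limma adjusted p = 0.154). The ubiquitin ligase SIAH2, which acts on prolyl hydroxylases, was lower with shRNA#2 than with shRNA#4 (log2 difference -0.40 ± 0.098, limma adjusted p = 0.044). These calls are thin. That of EGLN1 against scramble ended without replicate 2 of scramble (limma adjusted p = 0.0732), that of ARNT without replicate 1 of scramble (limma adjusted p = 0.0622), and that of EPAS1 without any 1 array other than replicate 1 of scramble (limma adjusted p up to 0.156). Between the hairpins, EGLN1 lost its call without either shRNA#2 array or replicate 2 of shRNA#4 (limma adjusted p up to 0.102), and SIAH2 without any 1 of the 4 hairpin arrays (limma adjusted p up to 0.201).

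The other HIF targets outside glycolysis were mixed. Of 44 listed genes 29 were measured, NDRG1 and BNIP3 included. Of 27 measured genes besides NDRG1 and BNIP3, 7 fell, 3 rose and 17 were not called for the mean of both hairpins. That is 37.0% called, beside 10.6% lower and 14.8% higher over all genes, and the median change was -0.069. LOX, the enzyme that crosslinks collagen, had log2 values of 0.56 and 0.72 in scramble, -0.12 and 0.12 with shRNA#2, and -0.31 and -0.22 with shRNA#4. It fell by 0.77 ± 0.086 (limma adjusted p = 0.00178), in the order of groups seen for NDRG1 and BNIP3. The difference of LOX between hairpins was not called (0.26 ± 0.099, limma adjusted p = 0.146). INSIG2, an ER protein that restrains sterol synthesis, fell by 0.72 ± 0.10 (limma adjusted p = 0.00421) but lay lowest with shRNA#2, at -0.60 and -0.43. Its difference between hairpins (-0.52 ± 0.12, limma adjusted p = 0.0368) lost its call without any 1 of the 4 hairpin arrays (limma adjusted p up to 0.175).

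STC2, a secreted glycoprotein of the stress response, rose by 0.79 ± 0.14 (limma adjusted p = 0.00795), with scramble arrays of -0.96 and -0.45. DDIT4 (REDD1), an inhibitor of mTORC1, rose by 0.53 ± 0.12 (limma adjusted p = 0.0202), and this call ended without either shRNA#2 array or replicate 2 of shRNA#4 (limma adjusted p up to 0.0575). HMOX1, the heme oxygenase, was not called for the mean of both hairpins. Its arrays stood at -0.16 and 0.16 in scramble, -0.54 and -0.38 with shRNA#2, and 0.80 and 1.07 with shRNA#4, so shRNA#2 lay below shRNA#4 (log2 difference -1.40 ± 0.14, limma adjusted p = 0.00305). TMEM45A, a membrane protein, was 0.74 ± 0.16 higher with shRNA#2 than with shRNA#4 (limma adjusted p = 0.0288), a call that ended without either shRNA#2 array or replicate 1 of shRNA#4 (limma adjusted p up to 0.143). VEGFA, the angiogenic growth factor and a textbook HIF target, stood at -0.042 ± 0.057 for the mean of both hairpins (limma adjusted p = 0.697). VEGFA and, in the following, CCNG2, ANKRD37, LDHA and GAPDH were chosen after their values were seen.

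**Figure D3:**
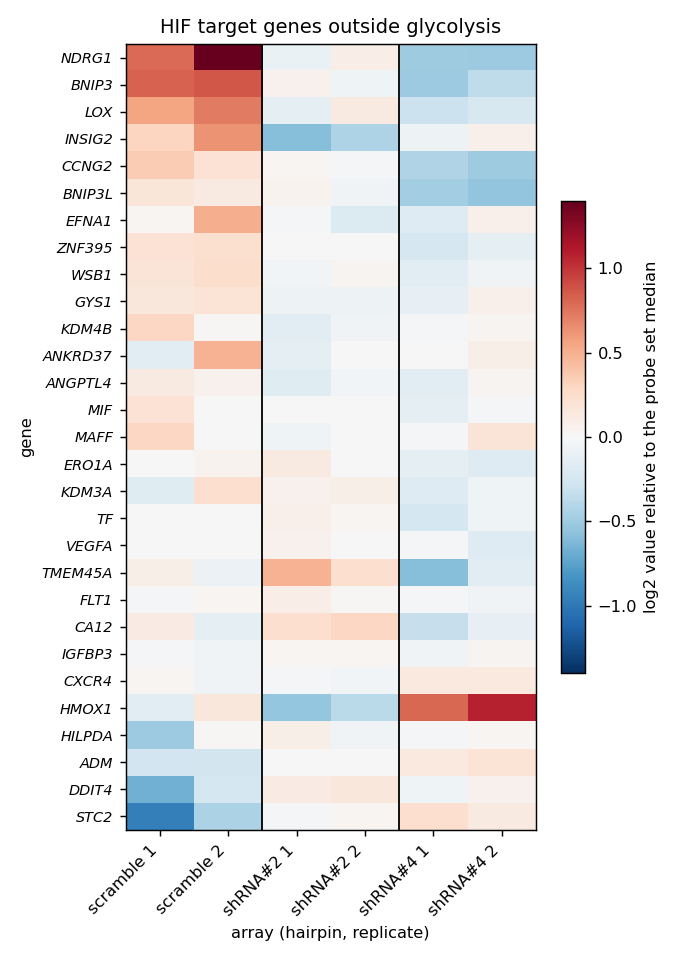
Heat map of the 29 measured HIF target genes outside glycolysis (rows, ordered by the mean of both hairpins minus scramble) on the 6 arrays (columns); colour is the log2 value relative to the probe set median. NDRG1 and BNIP3 are the top rows with both scramble arrays high, most rows are pale, STC2 is the bottom row, and HMOX1 is high with shRNA#4 only among the 3 groups.

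The core letters that mark the BNIP3 window stood before targets of every outcome. The short stretches below, from the same table and on each gene's strand, are shown for that reason, with ACGTG of either strand in capitals. LOX (chr5:122078343-122078367, minus strand) and CCNG2 (chr4:77157167-77157191, plus strand) fell, DDIT4 (chr10:72273789-72273813, plus strand) rose, and ANKRD37 (chr4:185396688-185396712, plus strand) was not called.
LOX: caatcgcattACGTGaacaaatagc
CCNG2: cgcggggagtCACGTGccccgcccc
DDIT4: aacgttgcttACGTGcgcccggagt
ANKRD37: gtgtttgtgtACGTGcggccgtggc

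The motif began 98, 30, 125 and 143 bases before the start of LOX, CCNG2, DDIT4 and ANKRD37, and LOX and ANKRD37 held further matches that are not shown. Over the 31 windows of the measured HIF targets, BNIP3 included, 54.8% held ACGTG, against 21.4% of all windows. The list was made of known HIF targets, so this share says nothing about the array values. Some genes count several times, LOX with 3 windows, and windows of like G and C content were not compared. By outcome for the mean of both hairpins, and leaving out NDRG1 and BNIP3, ACGTG was found for 4 of 5 genes that fell, 1 of 3 that rose and 7 of 14 that were not called, among those with a window. The counts are too small to set one outcome against another. CCNG2, an unconventional cyclin, fell by 0.51 ± 0.058 (limma adjusted p = 0.00191) and stood 0.46 ± 0.067 higher with shRNA#2 than with shRNA#4 (limma adjusted p = 0.00922).

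Around BNIP3, 34 genes of mitophagy and of BNIP3's partners were measured. With shRNA#4 16 of them were called, 10 higher and 6 lower (47.1%, against 26.1% of all genes), and with shRNA#2 5 were, 3 higher and 2 lower (14.7%, against 21.6%). Averaged over both hairpins, 5 rose and 5 fell (29.4%, near the 25.4% of all genes), and this count dropped to 6 in all without replicate 1 of shRNA#2 or without replicate 1 of scramble. PINK1, the kinase that marks depolarised mitochondria, had log2 values of 0.23 and 0.25 in scramble, -0.59 and -0.51 with shRNA#2, and -0.057 and 0.057 with shRNA#4. It fell by 0.52 ± 0.053 for the mean (limma adjusted p = 0.00137) and lay lower with shRNA#2 than with shRNA#4 (log2 difference -0.55 ± 0.061, limma adjusted p = 0.00448). That is the reverse of the order of the hairpins for BNIP3 and BNIP3L.

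GABARAPL2, one of the LC3-family proteins that mitophagy receptors bind, fell by 0.44 ± 0.053 (limma adjusted p = 0.00224). DNM1L, the dynamin of mitochondrial fission, rose by 0.49 ± 0.085 (limma adjusted p = 0.00802), and not without replicate 1 of scramble (limma adjusted p = 0.058). SQSTM1 (p62), an autophagy adaptor, stood at -0.054 and 0.054 in scramble, -0.24 and -0.11 with shRNA#2, and 0.48 and 0.49 with shRNA#4. It was lower with shRNA#2 than with shRNA#4 (log2 difference -0.66 ± 0.066, limma adjusted p = 0.00325).

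Around HK1, only 9 of 34 listed genes of glucose uptake, glycolysis and lactate were measured, so the pathway is seen in part. For the mean of both hairpins 1 rose and 1 fell, against 25.4% called over all genes, and the median change was -0.18. With shRNA#2 alone 0 were called (against 21.6% of all genes). With shRNA#4 alone 1 rose and 2 fell (33.3%, against 26.1%). PGK1, the phosphoglycerate kinase and a HIF target, had log2 values of 0.22 and 0.40 in scramble, -0.068 and 0.068 with shRNA#2, and -0.37 and -0.26 with shRNA#4. It fell by 0.47 ± 0.074 (limma adjusted p = 0.00602). PGK1 stood at -0.31 with shRNA#2 (limma adjusted p = 0.0504) and at -0.62 with shRNA#4 (limma adjusted p = 0.00362). LDHA, lactate dehydrogenase A and another HIF target, stood at -0.17 ± 0.083 (limma adjusted p = 0.207), and GAPDH at -0.033 ± 0.065 (limma adjusted p = 0.804).

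TIGAR, a phosphatase that diverts sugar phosphates from glycolysis, rose by 0.60 ± 0.081 (limma adjusted p = 0.00335). TIGAR changed by 0.22 with shRNA#2 (limma adjusted p = 0.161) and by 0.98 with shRNA#4 (limma adjusted p = 0.00111). Its shRNA#4 arrays stood at 0.87 and 0.65 and its shRNA#2 arrays at -0.010 and 0.010, a difference of -0.76 ± 0.094 (limma adjusted p = 0.00571). PGM1, which links glucose 1-phosphate and glucose 6-phosphate, was 0.40 ± 0.088 higher with shRNA#2 than with shRNA#4 (limma adjusted p = 0.0303), a call kept in only 1 of the 6 fits that left out an array (limma adjusted p up to 0.138). Without replicate 2 of shRNA#4, 4 of the 9 genes were called for the mean of both hairpins in place of 2.

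The pentose phosphate pathway, the other main use of the glucose 6-phosphate that hexokinases make, had 7 of 8 genes measured. For the mean of both hairpins 4 rose and 1 fell, 71.4% against 25.4% of all genes, with a median of 0.17. With shRNA#4 alone 4 rose and 1 fell (71.4%, against 26.1% of all genes). With shRNA#2 alone 2 rose and 0 fell (28.6%, against 21.6%). At an adjusted p (limma) under 0.01, 3 of the 7 were called. RPIA, which isomerises ribose 5-phosphate, moved in the order seen for HK1. Its log2 values were -1.16 and -1.02 in scramble, -0.011 and 0.011 with shRNA#2, and 0.47 and 0.58 with shRNA#4. RPIA rose by 1.36 ± 0.059 (2.56-fold, limma adjusted p = 0.000179), and its difference between hairpins was -0.52 ± 0.068 (limma adjusted p = 0.00667). TKT, transketolase, rose by 0.48 ± 0.042 (limma adjusted p = 0.000914) and RPE, the ribulose phosphate epimerase, by 0.25 ± 0.048 (limma adjusted p = 0.0123). The call of RPE ended without replicate 1 of scramble (limma adjusted p = 0.0803). H6PD, the hexose 6-phosphate dehydrogenase of the ER, fell by 0.40 ± 0.054 (limma adjusted p = 0.00339). It stood at -0.20 with shRNA#2 (limma adjusted p = 0.068) and at -0.60 with shRNA#4 (limma adjusted p = 0.00146). H6PD was 0.39 ± 0.062 higher with shRNA#2 than with shRNA#4 (limma adjusted p = 0.0118), a call that ended without replicate 1 of either hairpin (limma adjusted p up to 0.0769). Of 3 measured genes of gluconeogenesis, PC, pyruvate carboxylase, fell by 0.50 ± 0.089 (limma adjusted p = 0.00917) and the others were not called.

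MYC, which represses NDRG1 in several cell types, rose by 0.81 ± 0.081 (1.75-fold, limma adjusted p = 0.00133). Its log2 values were -0.65 and -0.82 in scramble, -0.048 and 0.18 with shRNA#2, and 0.048 and 0.11 with shRNA#4. The hairpin arrays thus overlapped for MYC (log2 difference between hairpins -0.015 ± 0.094, which changed sign without replicate 1 of shRNA#2). Any part of MYC in the NDRG1 values was not tested. Of 11 measured genes of the MYC and MAX network 1 rose and 4 fell for the mean of both hairpins, 45.5% against 25.4% of all genes, with a median of -0.063. MXD4, an antagonist of MYC, fell by 0.51 ± 0.083 (limma adjusted p = 0.00667), and MLXIPL (ChREBP), a glucose-responsive factor, by 0.68 ± 0.11 (limma adjusted p = 0.00581). MXD4 stood at -0.29 with shRNA#2 (limma adjusted p = 0.0864) and at -0.72 with shRNA#4 (limma adjusted p = 0.00316). MLXIP (MondoA) fell by 0.25 ± 0.044 (limma adjusted p = 0.00842), and not without replicate 1 of scramble (limma adjusted p = 0.0588). MLX, the partner of both of these factors, was lower with shRNA#2 than with shRNA#4 (log2 difference -0.49 ± 0.062, limma adjusted p = 0.00617). MXD4 was higher with shRNA#2 by 0.44 ± 0.095 (limma adjusted p = 0.0303), a call that ended without any 1 of the 4 hairpin arrays (limma adjusted p up to 0.151).

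**Figure D4:**
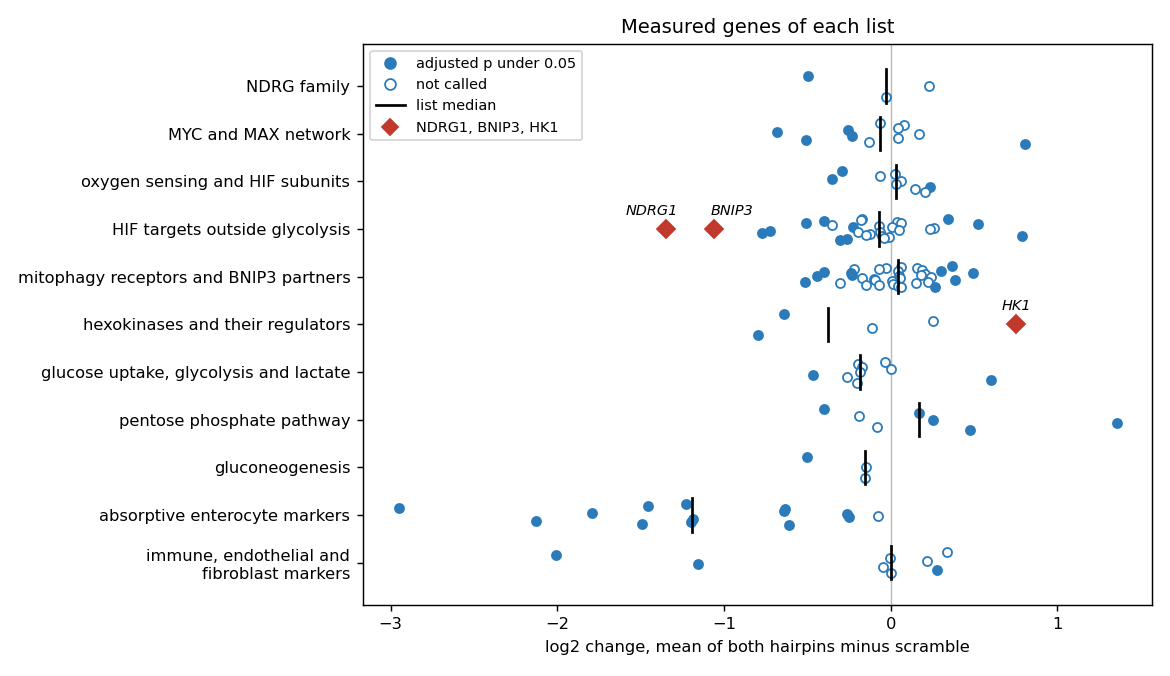
Log2 change for the mean of both hairpins minus scramble of each measured gene (circles), by gene list; filled circles are called (limma adjusted p under 0.05), vertical bars are list medians without NDRG1, BNIP3 and HK1, and diamonds are those 3 genes. NDRG1 and BNIP3 lie at -1.35 and -1.06 beside a HIF target list centred on -0.069, and HK1 at 0.75 beside a hexokinase list in which HKDC1 and GCKR lie below 0.

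The protein-coding genes whose 6 values lay closest to each of the trio were found by Euclidean distance on the log2 scale, over the 6 arrays. For NDRG1 they were TCP11L2 (distance 0.34), KLHL13 (0.38) and the annexin ANXA13 (0.42), with a median of 1.78 over all other protein-coding genes. For BNIP3 they were ACSF2, an acyl-CoA synthetase (0.19), the transcription factor MAF (0.23) and DEPTOR, an inhibitor of mTOR (0.25), with a median of 1.37. For HK1 they were BEND7 (0.11), ZNF675 (0.13) and the nucleoporin NUP205 (0.14), with a median of 0.99. None of these 9 belongs to the hypoxia or glucose lists used here. All pathway lists together hold only 106 of the 14884 genes besides the trio, so this count says little. Averaged over the hairpins and set against scramble, ACSF2 stood at -0.97, close to BNIP3, and BEND7 at 0.70, close to HK1. This closeness follows from the choice by distance over the same values. NDRG1 and BNIP3 lay 0.59 apart from each other, so each had closer neighbours than the other.

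Among the measured genes that flank the trio on the chromosome, by the order of the RefSeq table (GRCh38.p14), 1 of 6, HKDC1, was called for the mean of both hairpins, where 25.4% of all genes were. Genes that were not measured can lie between. HKDC1 and TACR2 lie 2447 and 2020 bases from HK1, but ZFAT lies 1180535 bases from NDRG1 and LINC01164 177484 from BNIP3. CCN4 and ZFAT beside NDRG1 stood at 0.068 and -0.070 for the mean of both hairpins, LINC01164 and JAKMIP3 beside BNIP3 at 0.010 and 0.0032, and TACR2 on the other side of HK1 at 0.0070. Their adjusted p-values (limma) ran from 0.324 for ZFAT to 0.986 for JAKMIP3.

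Markers of the absorptive enterocyte differed between scramble and hairpin cells alongside these genes. Of 14 measured markers 13 fell and 0 rose for the mean of both hairpins, against 10.6% lower and 14.8% higher over all genes, with a median of -1.19. The median of the list stood at 1.12 and 0.84 on the scramble arrays and between -0.089 and -0.045 on the hairpin arrays. Brush border and lipid transport genes led, with APOA4 at -2.95, the disaccharidase LCT at -2.13 and the protocadherin CDHR5 at -1.79. SI, another disaccharidase, fell by 1.49 ± 0.17 and lay lower with shRNA#2 than with shRNA#4 (log2 difference -0.93 ± 0.20, limma adjusted p = 0.0294, up to 0.137 without either shRNA#2 array or replicate 1 of shRNA#4). CA2, a carbonic anhydrase, fell by 0.63 ± 0.084 and was 0.81 ± 0.097 higher with shRNA#2 than with shRNA#4 (limma adjusted p = 0.00543), the side of BNIP3. CA2 stood at -0.23 with shRNA#2 (limma adjusted p = 0.167) and at -1.04 with shRNA#4 (limma adjusted p = 0.00105). Between the hairpins 1 of the 14 markers was called higher with shRNA#2 and 3 lower (28.6%, against 15.3% of all genes). The median of the list there was -0.0097, within a range of -0.93 to 0.81. NDRG1, BNIP3 and HK1 each lay farther from scramble with shRNA#4. Some markers, such as VIL1, did so too, and others, such as SI, lay farther with shRNA#2. The part of the marker shift in the values of NDRG1, BNIP3 and HK1 was not tested.

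Of 8 measured markers of immune, endothelial and fibroblast cells, 2 fell and 1 rose (37.5%, against 25.4% of all genes). They were CD68 (-2.01) and lysozyme LYZ (-1.16), which epithelial cells can also express, and VIM, vimentin (0.28 ± 0.048, limma adjusted p = 0.00843, 0.0572 without replicate 1 of scramble). On all 6 arrays the median of this list stood between -0.011 and 0.023. VIM was lower with shRNA#2 than with shRNA#4 (log2 difference -0.28 ± 0.056, limma adjusted p = 0.022), and not without either shRNA#2 array or replicate 1 of shRNA#4 (limma adjusted p up to 0.113). Replicates varied alike over all genes: their difference had a standard deviation of 0.134 in the scramble group, 0.120 in the shRNA#2 group and 0.128 in the shRNA#4 group.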

How the data were processed

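The deposited table held log2 values (the base was assumed) that the authors had set relative to each probe set's median over the 6 arrays, as the values themselves show. Per the labels' protocols, 100 ng of RNA was labelled with the WT PLUS reagent kit. Probe summarisation, normalization and signal over background were not given in the sources used here. Precision is limited by the number of arrays. Probe sets were named by Entrez ID, 16098 with 1 symbol, 0 with several and 32046 with none, and averaged per gene where several (779 genes). limma 3.58.1 (R 4.3.3) fitted all 6 arrays in 3 groups (eBayes without trend, 3 residual and 3.09 prior degrees of freedom), with Benjamini-Hochberg adjustment over 14884 genes, and was tested on simulated data. The 11 gene lists held 207 symbols. Genes named were, per list, up to 4 called genes that changed most when both hairpins were averaged, up to 2 between hairpins, and family members. The genes described and the lists were chosen with earlier results of these data known. Alternatives were a fit without each array in turn, a replicate block, quantile normalization, centring of arrays, a robust prior, weights per array, every probe set tested, protein-coding genes only, a fit of just the arrays compared, and a threshold of 0.01. Figures used matplotlib 3.10.9.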

Additional observations from a re-analysis of the deposited data

Results flagged for a closer look

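BNIP3 differed between the hairpins by the test of that difference, at 0.43 for shRNA#2 minus shRNA#4, and BNIP3L did so on the same side at 0.52. Among the genes named by the stated rule, the others called higher with shRNA#2 were HKDC1 (0.75), TMEM45A (0.74), CA2 (0.81), NDRG3 (0.53), MXD4 (0.44), EGLN1 (0.41), PGM1 (0.40) and H6PD (0.39). Those called lower with shRNA#2 were HMOX1 (-1.40), SI (-0.93), TIGAR (-0.76), SQSTM1 (-0.66), PINK1 (-0.55), RPIA (-0.52), INSIG2 (-0.52), MLX (-0.49), BNIP1 (-0.44), SIAH2 (-0.40) and VIM (-0.28). The lists held further genes called between hairpins that the rule does not name. They were CA12 (0.48), CCNG2 (0.46), ATG7 (0.29) and PHB2 (0.23) on the higher side, and APOA1 (-0.45), MAX (-0.43), LDHB (-0.37), MYO1A (-0.31) and MXD3 (-0.26) on the lower side. All are limma log2 differences with n = 2 arrays per hairpin. With 2 arrays per group, no test for a single unusual array was run.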

How the results depend on the processing

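Of 1910 values recomputed under the alternatives, 1695 kept their direction and side of the threshold or stayed close, 94 moved, 85 fell below the threshold, 19 passed it and 17 changed sign. For NDRG1, BNIP3 and HK1 this was 145 of 168, and none of the 168 changed sign. With 1 probe set per gene and 2 arrays per group, several alternatives leave their log2 changes as they were. These are the replicate block, the robust prior, weights, every probe set, protein-coding genes only and only the arrays compared. Leaving out an array of a group outside the comparison does so too. Against scramble, such matches were fixed in advance. Quantile normalization shrank the changes against scramble to -0.78 (shRNA#2), -1.28 (shRNA#4) and -1.03 (mean) for NDRG1, to -0.63, -1.06 and -0.85 for BNIP3, and to 0.52, 0.75 and 0.64 for HK1. This normalization was applied to values already centred on each probe set's median, and the cause of the shrinkage was not tested.

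Leaving out 1 array at a time gave, in the same order, -1.40 to -0.79, -1.90 to -1.30 and -1.65 to -1.05 for NDRG1, the last without replicate 1 and without replicate 2 of scramble. It gave -0.91 to -0.78, -1.35 to -1.20 and -1.10 to -1.02 for BNIP3, and 0.53 to 0.75, 0.86 to 0.88 and 0.70 to 0.81 for HK1. Between the hairpins it gave 0.42 to 0.59 for NDRG1, 0.36 to 0.51 for BNIP3 and -0.34 to -0.12 for HK1. With only the arrays compared NDRG1 was called at 0.51, and at an adjusted p (limma) under 0.01 BNIP3, at 0.43, was not. Over all alternatives the adjusted p (limma) between hairpins ran from 0.0161 to 0.411 for NDRG1, 0.00868 to 0.0826 for BNIP3 and 0.0522 to 0.344 for HK1.

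All genes called numbered 3220 (shRNA#2), 3884 (shRNA#4), 3784 (mean) and 2272 (between hairpins). At an adjusted p under 0.01 they were 1575, 2122, 2158 and 769, and over all probe sets 6300 (shRNA#4) and 6141 (mean). Without 1 array they ran from 1756 to 2982, 2677 to 3476, 2477 to 3358 and 761 to 2166. Of the 106 genes of the pathway lists, 26, 45, 38 and 24 were called. These were 10, 22 and, between hairpins, 10 at an adjusted p under 0.01, and 15 between hairpins over all probe sets. Without 1 array they ran from 8 to 28, 28 to 41, 29 to 35 and 10 to 23.

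Every value that changed sign belonged to a difference that was not called. Under quantile normalization these were MYC between hairpins (0.0024) and TMEM45A for the mean of both hairpins (0.046). Without 1 array the differences between hairpins ran from -0.13 to 0.097 for MYC, -0.21 to 0.100 for MLXIPL, -0.042 to 0.030 for MLXIP, -0.13 to 0.064 for NDRG4, -0.011 to 0.54 for CD68 and -0.0019 to 0.025 for HK3. The means of both hairpins ran from -0.12 to 0.102 for TMEM45A, from -0.13 to 0.075 for NDRG4 and from -0.0055 to 0.094 for BNIP2.

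Arrays share only a replicate number, and deviations of same-numbered arrays correlated at 0.179, 0.119 and 0.199. With the number as a replicate block 3598, 4227, 4160 and 2637 genes were called, and between hairpins the adjusted p (limma) was 0.0686 for NDRG1, 0.0175 for BNIP3 and 0.0885 for HK1. The block also added calls for the mean of both hairpins of NDRG3 (0.0192), SIAH2 (0.0169), HMOX1 (0.0193) and PGM1 (0.0458), and between hairpins of LOX (0.0362) and PGK1 (0.0131), as adjusted p (limma). It took the NDRG family from 1 to 2 called and the glycolysis list from 2 to 4 for that mean, and the other cell types from 1 to 2 between hairpins. For the mean contrast only the arrays compared was not run, since it uses all groups. Levels over background are not known from centred values.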
